A study of Homo sapiens with 12 samples.

Results

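The RNAs described here are the box H/ACA small nucleolar RNAs (SNORA) and the small Cajal body RNAs (SCARNA) of 2 Ewing sarcoma cell lines, TC32 and SKNMC. They were taken as every probe of the bead array whose platform symbol starts with SNORA or SCARNA, which gave 126 of 47319 probes, 102 SNORA and 24 SCARNA, for 125 symbols. Of these, 95 probes (77 SNORA and 18 SCARNA, 94 symbols) had a detection p under 0.05 on at least 3 of the 12 arrays and could be tested, against 21753 of all probes. The other 31 did not pass, and 15 of them were detected on no array. The 5 members detected on exactly 3 arrays had mean normalized log2 intensities of 4.30 to 4.40, and the 6 detected on 2 arrays, just outside the filter, had 4.23 to 4.38.

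Both lines are established cultures of a bone and soft tissue tumour that carries a fusion of EWSR1 with an ETS transcription factor gene. The groups were TC32 given 40 µM NU7441, TC32 given vehicle, SKNMC given 40 µM NU7441 and SKNMC given vehicle, each taken at 48 h on 3 arrays; vehicle was 0.1% DMSO. NU7441 inhibits the DNA-dependent protein kinase. Each line is a single culture line with no genetic change made for the study, no label says that replicates were separate cultures, and p-values therefore measure a spread between samples that may be technical. All vehicle titles carry a mark, (2), whose meaning is not given, so any difference in handling that it stands for cannot be told apart from NU7441. The 2 lines' comparisons share no arrays.

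H/ACA RNAs fold into hairpins that pair with a target RNA and place one of its uridines before the pseudouridine synthase dyskerin (DKC1), with NHP2, NOP10 and GAR1 as partners. SNORA RNAs guide this change mostly in ribosomal RNA in the nucleolus, whereas SCARNA RNAs stay in Cajal bodies, nuclear bodies where spliceosomal small nuclear RNAs mature, and guide changes in those RNAs. In human cells most are cut from the introns of host genes by trimming after splicing and carry no cap or poly(A) tail when mature. The labelling kit named by the submitters primes cDNA from poly(A) tails, so the signals are of what that priming picked up, and mature, precursor and tailed forms of an RNA cannot be told apart. In bulk RNA, more of an RNA per cell and more cells that hold it cannot be told apart either.

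Because nearly all members lie inside other genes, the regions upstream of the hosts of the 4 largest TC32 rises are shown: CWF19L1 holds SNORA12, GTF2A1 holds SNORA79, TMEM167A holds SCARNA18 and HAUS6 holds SCARNA8. Each is the 250 bases before the gene start from RefSeq on GRCh38.p14, 5′ to 3′ on the gene's own strand, which is the minus strand for all of them. They lie at chr10:100267639-100267888, chr14:81221391-81221640, chr5:83077395-83077644 and chr9:19102905-19103154. Capitals mark the ETS-type motif CCGGAAGT read on either strand.
CWF19L1: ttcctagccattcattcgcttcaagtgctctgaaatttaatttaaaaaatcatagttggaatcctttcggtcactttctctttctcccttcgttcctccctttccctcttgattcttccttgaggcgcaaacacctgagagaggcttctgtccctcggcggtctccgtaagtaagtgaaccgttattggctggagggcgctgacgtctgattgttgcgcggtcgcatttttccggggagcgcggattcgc
GTF2A1: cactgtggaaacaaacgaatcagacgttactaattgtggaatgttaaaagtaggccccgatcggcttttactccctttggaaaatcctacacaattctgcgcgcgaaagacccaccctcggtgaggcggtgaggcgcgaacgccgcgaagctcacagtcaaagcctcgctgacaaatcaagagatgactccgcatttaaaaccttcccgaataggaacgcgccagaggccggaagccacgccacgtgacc
TMEM167A: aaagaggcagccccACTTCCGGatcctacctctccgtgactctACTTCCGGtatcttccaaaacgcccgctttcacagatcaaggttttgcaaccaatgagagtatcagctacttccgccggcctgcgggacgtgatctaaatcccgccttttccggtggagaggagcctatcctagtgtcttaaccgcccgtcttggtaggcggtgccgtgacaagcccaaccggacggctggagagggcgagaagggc
HAUS6: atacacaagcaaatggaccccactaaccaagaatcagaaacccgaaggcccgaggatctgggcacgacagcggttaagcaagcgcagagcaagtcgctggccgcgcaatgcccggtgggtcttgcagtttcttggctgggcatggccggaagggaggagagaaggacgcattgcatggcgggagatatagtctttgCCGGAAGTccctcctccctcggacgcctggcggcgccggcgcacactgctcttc
The motif stood 2 times in the TMEM167A window, 1 time in that of HAUS6 and 0 times in the other two. Over the 62 of 74 hosts with a sequence in the table, 12 windows held it (19.4%), against 3.64% of 27305 promoters of the same length and 5.09% of the 15843 of protein-coding genes. The hosts with it were EEF1B2, HAUS6, MRPL3, PHB2, POLA1, RCC1, RPL27A, RPL32, RPLP2, SEC14L1, TMEM167A and TOMM20. The letters TATAAA, read on either strand, were in 6 windows (9.68%), against 11.2% of all promoters and 9.35% of protein-coding ones. These matches describe letters only.

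Between 17944 and 20148 of the 47319 probes were detected per array, and 13 of 14 Ewing sarcoma markers passed the filter, as did 1 of 4 leukocyte (CD14), 0 of 3 endothelial and 3 of 5 epithelial markers (EPCAM, KRT8 and KRT18). The NU7441 arrays differed among themselves. The brighter of 2 probes of 28S ribosomal RNA read log2 8.26, 9.33 and 12.69 in TC32 NU7441, against 5.06, 4.86 and 5.13 in TC32 vehicle, and 4.33, 12.33 and 12.42 in SKNMC NU7441, against 4.50, 4.43 and 4.17 in SKNMC vehicle. TC32 NU7441 replicate 3 and SKNMC NU7441 replicates 2 and 3 were thus the highest in that probe. The other 28S probe read 5.50, 5.86 and 11.50 in TC32 NU7441, against 4.93, 4.61 and 4.70 in TC32 vehicle, and 4.43, 7.50 and 7.61 in SKNMC NU7441, against 4.34, 4.68 and 4.21 in SKNMC vehicle. The 18S probe read 6.55, 7.87 and 11.32 in TC32 NU7441, against 7.41, 7.79 and 6.30 in TC32 vehicle, and 6.43, 5.27 and 4.82 in SKNMC NU7441, against 5.74, 5.54 and 5.64 in SKNMC vehicle, where replicates 2 and 3 were thus below vehicle. The 3 arrays are those highest in 28S, and results are also given without them, a fit that leaves SKNMC NU7441 with 1 array and borrows its spread from the remaining groups. It keeps the TC32 NU7441 arrays at 8.26 and 9.33, which are also above vehicle in the brighter 28S probe. The part of this difference in the results was not tested beyond that.

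More members were detectable with NU7441 in each line, while the number of probes detected over the whole array was not higher. Of the 126 members, 94, 93 and 89 were detected on the TC32 NU7441 arrays and 63, 67 and 63 on the TC32 vehicle arrays. In SKNMC the counts were 78, 83 and 89 with NU7441 and 66, 62 and 66 with vehicle. No NU7441 array overlapped the vehicle arrays of its line. Whole-array counts ran from 18178 to 18744 in TC32 NU7441 against 18389 to 19523 in TC32 vehicle. They ran from 17944 to 19263 in SKNMC NU7441 against 19297 to 20148 in SKNMC vehicle. In TC32, 15 members were detected on 3 of 3 NU7441 and 0 of 3 vehicle arrays (background 0.309% of all probes), among them SNORA79, SNORA2B, SCARNA11, SCARNA14, SCARNA20 and SCARNA21. In SKNMC there were 7 (background 0.359%), and SNORA2B, SCARNA11, SCARNA20, SCARNA7 and SNORA23 were in both groups. The reverse pattern was found for 0 members in TC32 (background 0.63%) and 0 in SKNMC (background 1.06%), shares at which few of 126 would show it.

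**Figure D1:**
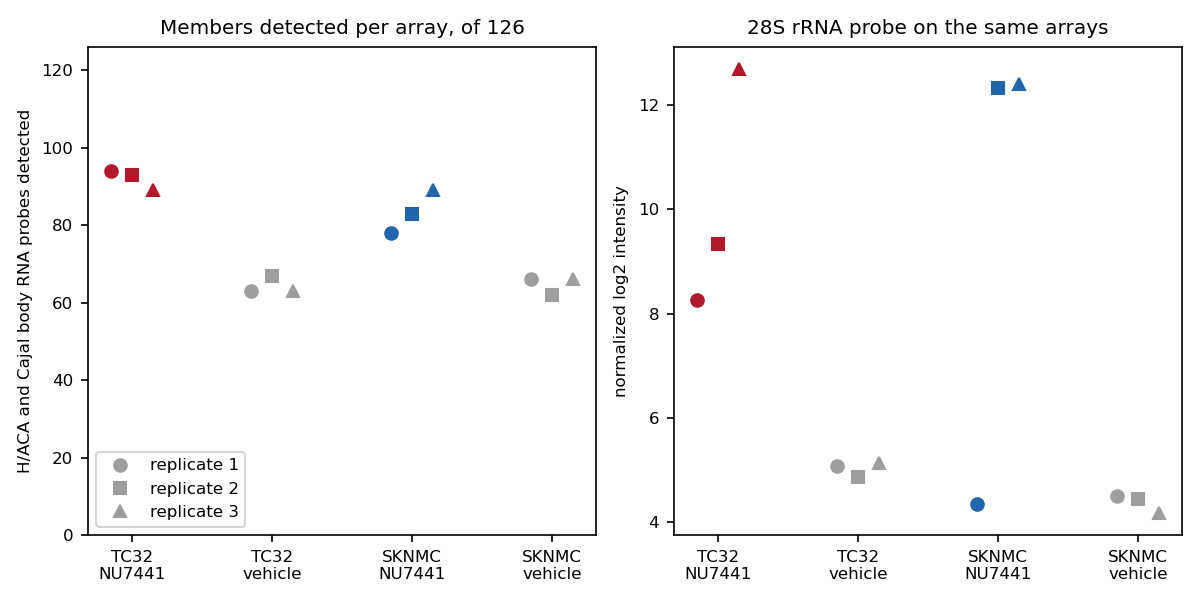
The left panel plots how many of the 126 member probes were detected on each array (y axis, detection p under 0.05) and the right panel the normalized log2 intensity of the 28S rRNA probe on the same arrays, by group on the x axis with 1 symbol per replicate. The NU7441 arrays lie at 89 to 94 members in TC32 and 78 to 89 in SKNMC, above all vehicle arrays (62 to 67), and SKNMC NU7441 replicate 1 does so with a 28S reading of 4.33.

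In TC32, NU7441 was followed by higher signals over much of the class and by no called fall. Of the 95 testable members, 45 were called higher (34 SNORA and 11 SCARNA) and 0 lower, at a limma adjusted p under 0.05 over all 21753 probes and a log2 change of at least 1 in size; of all probes 2.17% were called higher and 3.08% lower. At adjusted p alone 67 were higher and 0 lower (background 9.59% higher, and 2303 of all 21753 probes lower). At an unadjusted p under 0.05 1 was lower, for which no share over all probes was taken. The median log2 fold change was 0.93 over the 95 members and 0.006 over all tested probes, and 90 of the 95 were above 0. Of the 95, 20 were detected on no TC32 vehicle array, 10 of them called; with such members at their lower bounds the median was 0.87. All 3 NU7441 arrays lay above all 3 vehicle arrays for 74 of the 95 (background 16.2%) and for 77 of all 126 (background 10.4%), and below them for 1 of the 95 (background 17.9%) and 1 of all 126 (background 10.8%). A member can pass the filter through its NU7441 arrays alone; 11 did, of which 4 were called. Among the 46 members detected on every array, 27 were called. Per-array medians over the 95 members were 5.92, 5.81 and 6.01 in TC32 NU7441 and 4.81, 4.72 and 4.65 in TC32 vehicle. Without TC32 NU7441 replicate 3 the count was 39 (background 1.89%). Without between-array normalization, a setting that shifts the median of all probes by -0.19, it was 32 (background 0.662%). In the submitters' log2 table, where low signals are compressed, it was 17 (background 0.667%).

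SNORA12 had the largest rise. It read 9.24, 9.40 and 8.16 in TC32 NU7441 and 5.16, 4.995 and 5.19 in TC32 vehicle, so that it was 14.1-fold higher (3.82 ± 0.25 log2, SE, 3 arrays a group; limma adjusted p = 2.46e-07). The groups were far apart, with replicate 3 the lowest of the treated arrays. SNORA79 read 8.22, 8.69 and 6.09 in TC32 NU7441 and 4.29, 4.25 and 4.25 in TC32 vehicle, where it was not detected on any array. It was at least 9.24-fold higher (adjusted p = 0.000206), again with replicate 3 the lowest treated array.

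SNORA28 read 7.72, 7.85 and 6.91 in TC32 NU7441 and 4.85, 4.74 and 4.92 in TC32 vehicle (2.66 ± 0.33, adjusted p = 8.56e-05). SNORA63, long known as E3, read 7.96, 7.94 and 7.33 with NU7441 and 5.30, 5.38 and 5.05 with vehicle (2.50 ± 0.18, adjusted p = 7.64e-07). Neither pair of groups overlapped, and SNORA63 had the closer treated arrays. SNORA48 read 6.92, 6.47 and 6.05 in TC32 NU7441 and 4.42, 4.43 and 4.54 in TC32 vehicle (2.01 ± 0.22, adjusted p = 2.91e-05). SNORA57 read 8.33, 8.08 and 8.69 with NU7441 and 6.01, 5.96 and 5.86 with vehicle (2.42 ± 0.21, adjusted p = 4.39e-06). Replicate 3 was the highest treated array in SNORA57 and the lowest in SNORA48.

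SNORA2B read 6.44, 6.67 and 6.65 in TC32 NU7441, against 4.39, 4.29 and 4.21 in TC32 vehicle, where it was not detected, so that it was at least 4.37-fold higher (adjusted p = 3.64e-05). SNORA80A read 7.59, 7.50 and 8.44 with NU7441 and 5.95, 5.82 and 5.40 with vehicle (2.12 ± 0.30, adjusted p = 0.00023). Both groups were apart in each case. SNORA25 read 7.86, 7.68 and 8.26 in TC32 NU7441 and 6.87, 6.64 and 6.31 in TC32 vehicle (1.33 ± 0.22, adjusted p = 0.000789; 0.85 and not called without between-array normalization). SNORA73B, the U17 RNA that takes part in cleavage of the ribosomal RNA precursor and not in its modification, is read by 2 probes. One read 7.41, 7.48 and 7.88 with NU7441 and 6.17, 6.46 and 6.50 with vehicle, and the other 7.51, 7.27 and 7.96 with NU7441 and 6.16, 6.16 and 6.60 with vehicle. The 2 probes gave like values, 1.21 ± 0.16 (adjusted p = 0.00014) and 1.27 ± 0.19 (adjusted p = 0.000441), both under the fold minimum without between-array normalization (0.75 and 0.82); SNORA73A is a near-identical RNA (1.01), so their signals may be shared.

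**Figure D2:**
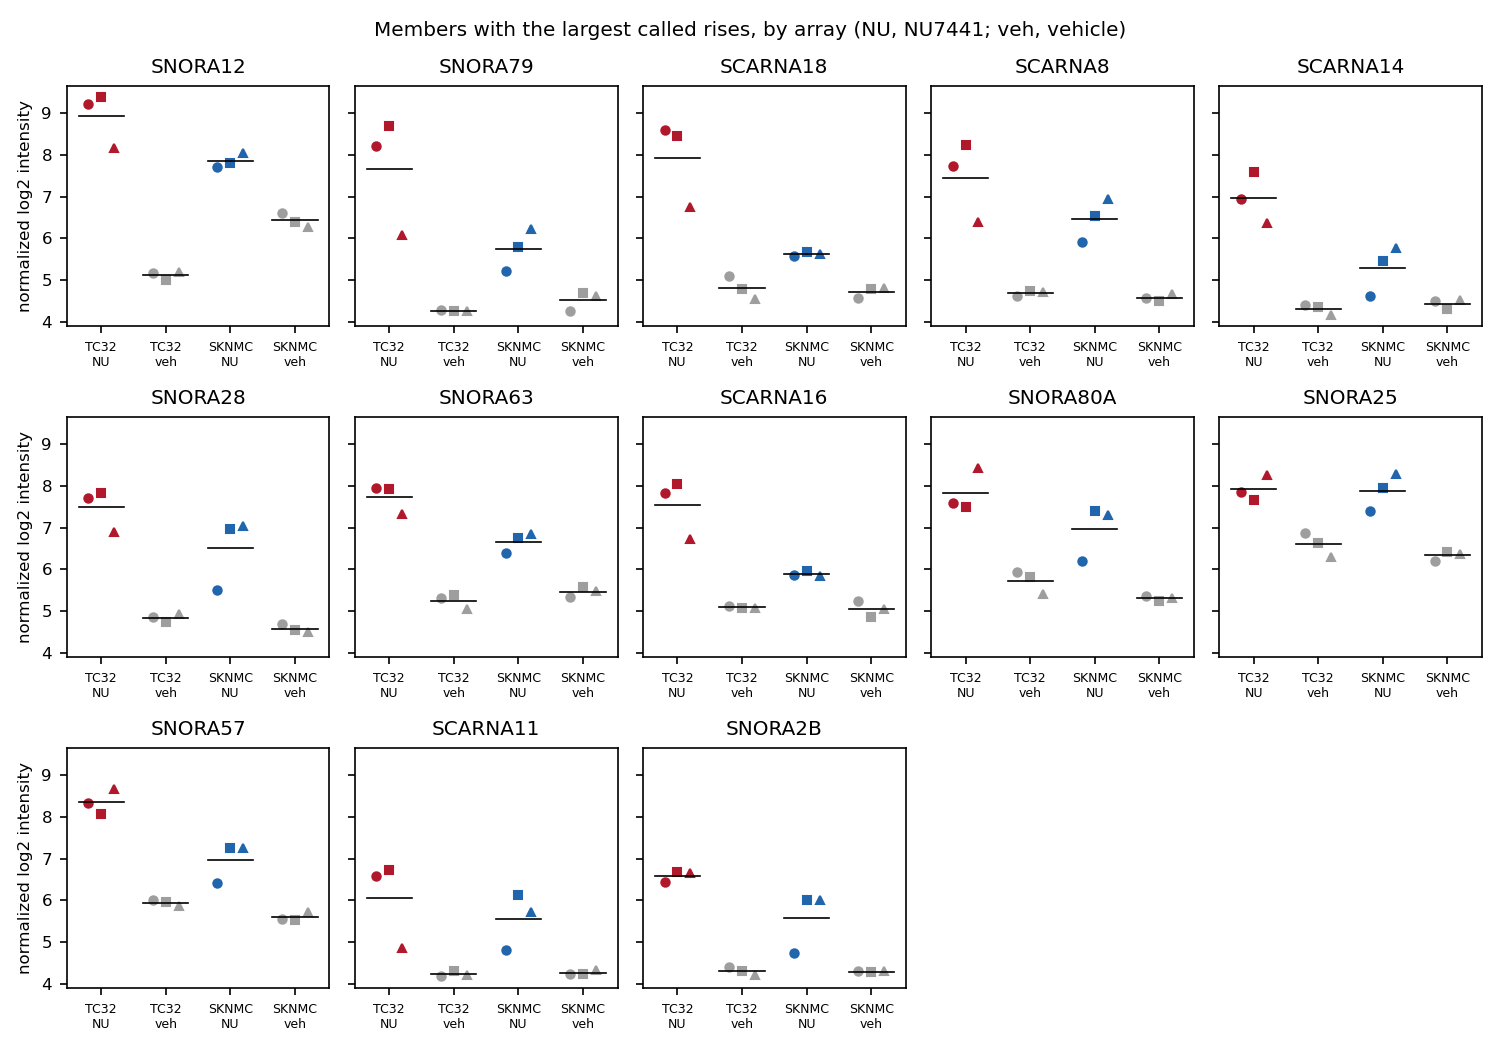
Each panel plots the normalized log2 intensity (y axis) of 1 of the 13 members with the largest called rises in TC32 or SKNMC on all 12 arrays, with 1 symbol per replicate and a line at the group mean (NU, NU7441; veh, vehicle). In TC32 the treated arrays lie above the vehicle arrays in every panel, with replicate 3 far below the other treated arrays in SNORA79 (8.22, 8.69 and 6.09).

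In SKNMC fewer members were called, none that was not also called in TC32. With NU7441 15 of the 95 were called higher (11 SNORA and 4 SCARNA) and 0 lower, against 3.08% of all probes called higher and 4.31% lower. Among the 15, 2 (SNORA2B and SCARNA11) passed the filter on NU7441 arrays alone. Their being tested at all thus depended on the arrays where they were high. Among the 46 members detected on every array, 11 were called. The median over members was 0.42, against 0.02 over all probes, and 88 of 95 were above 0; with the members undetected in vehicle at their bounds it was 0.41. At adjusted p alone 37 were higher (background 13.2%) and 1 was lower, where 2805 of all 21753 probes were lower. The 1 was SNORA59A, which read 5.68, 5.63 and 5.60 in SKNMC NU7441 and 6.28, 6.18 and 6.24 in SKNMC vehicle (-0.59 ± 0.15, adjusted p = 0.00978). All treated arrays lay above all vehicle arrays for 56 of the 95 members (background 21.5%) and for 58 of all 126 (background 13%), and below them for 3 of the 95 (background 20.9%) and 3 of all 126 (background 12.4%). Per-array medians were 5.04, 5.20 and 5.22 in SKNMC NU7441 and 4.69, 4.69 and 4.60 in SKNMC vehicle. Without the 3 arrays high in 28S signal the median over members was 0.38. In the submitters' log2 table only 1 call remained, 1.05% of members against 0.896% of all probes. That count was therefore near the background. The median over members there was 0.15, against 0.01 over all probes.

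SNORA28 read 5.51, 6.96 and 7.05 in SKNMC NU7441 and 4.69, 4.54 and 4.49 in SKNMC vehicle (1.93 ± 0.33, adjusted p = 0.000845; 0.97 and not called without the 3 arrays). SNORA80A read 6.19, 7.40 and 7.31 with NU7441 and 5.37, 5.23 and 5.30 with vehicle (1.67 ± 0.30, adjusted p = 0.00112; 0.91 and not called without them). In both, replicate 1 lay between the vehicle arrays and the other treated arrays. SNORA25 read 7.40, 7.96 and 8.28 in SKNMC NU7441 and 6.19, 6.43 and 6.37 in SKNMC vehicle (1.55 ± 0.22, adjusted p = 0.000225), and stayed called at 1.09 without the 3 arrays. SNORA12 read 7.72, 7.81 and 8.05 with NU7441 and 6.62, 6.39 and 6.28 with vehicle (1.43 ± 0.25, adjusted p = 0.000942; 1.30 and called without them). These 2 rises were seen on replicate 1 as well. SNORA57 read 6.41, 7.27 and 7.25 in SKNMC NU7441 and 5.55, 5.53 and 5.71 in SKNMC vehicle (1.38 ± 0.21, adjusted p = 0.000422; 0.83 and not called without them). SNORA2B read 4.73, 5.998 and 6.01 with NU7441 and 4.30, 4.27 and 4.29 with vehicle and undetected there, and was at least 2.22-fold higher (adjusted p = 0.00225; a fitted 0.46 on the log2 scale, against undetected vehicle signals, and not called without them). SNORA63 read 6.40, 6.74 and 6.85 in SKNMC NU7441 and 5.33, 5.57 and 5.47 in SKNMC vehicle (1.21 ± 0.18, adjusted p = 0.000369; 0.96, just under the fold minimum, without them).

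SNORA79 read 5.22, 5.78 and 6.23 in SKNMC NU7441 and 4.26, 4.69 and 4.60 in SKNMC vehicle (1.23 ± 0.47, adjusted p = 0.0683), above vehicle on each treated array and not called. SNORA48 read 4.67, 4.85 and 5.45 with NU7441 and 4.44, 4.32 and 4.16 with vehicle (0.68 ± 0.22, adjusted p = 0.0335), under the fold minimum. The 2 probes of SNORA73B read 6.52, 6.28 and 6.23, and 6.18, 6.69 and 6.27, in SKNMC NU7441, against 6.01, 6.004 and 5.76, and 5.81, 5.91 and 5.73, in SKNMC vehicle. Neither was called, at 0.42 ± 0.16 (adjusted p = 0.0677) and 0.56 ± 0.19 (adjusted p = 0.0449).

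The Cajal body RNAs had a median log2 fold change of 1.44 in TC32 and 0.70 in SKNMC over the 18 that passed, and the 77 SNORA probes 0.87 and 0.41; this difference was not tested. Grouped by the boxes they are known to carry, a grouping made after the values were seen, 9 of 11 H/ACA-type SCARNAs (125 to 275 nt) were called higher in TC32, 1 of 3 of box C/D type (330 to 420 nt) and 0 of 3 with both kinds of box (270 to 330 nt). In SKNMC the counts were 3, 1 and 0. Of all probes 2.17% were called higher in TC32 and 3.08% in SKNMC. The groups of 3 are too small to compare the box types. SCARNA7 and SCARNA2 were undetected on all vehicle arrays, as were SCARNA11 and SCARNA20 of the H/ACA type. All of these passed the filter on NU7441 arrays alone. SCARNA11 and SCARNA20 are among the 9 called in TC32, and SCARNA11 is among the 3 called in SKNMC. SCARNA21 was placed in no type. Box C/D RNAs guide 2′-O-methylation in place of pseudouridylation.

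Of the H/ACA type, SCARNA18 read 8.60, 8.46 and 6.75 in TC32 NU7441 and 5.10, 4.77 and 4.54 in TC32 vehicle (3.13 ± 0.35, adjusted p = 3.43e-05). SCARNA8, a guide for the U2 small nuclear RNA, read 7.74, 8.23 and 6.38 with NU7441 and 4.62, 4.74 and 4.70 with vehicle (2.76 ± 0.35, adjusted p = 0.000112). SCARNA14 read 6.95, 7.59 and 6.38 in TC32 NU7441 and 4.40, 4.34 and 4.15 in TC32 vehicle, undetected there, and was at least 5.70-fold higher (adjusted p = 2.63e-05). In all of these replicate 3 was the lowest treated array and still above vehicle. SCARNA16 read 7.84, 8.05 and 6.73 in TC32 NU7441 and 5.12, 5.06 and 5.06 in TC32 vehicle (2.46 ± 0.25, adjusted p = 1.74e-05). SCARNA13, a tandem of H/ACA units, read 8.43, 8.17 and 7.29 with NU7441 and 5.55, 5.59 and 5.55 with vehicle (2.40 ± 0.27, adjusted p = 3.79e-05). SCARNA23 read 7.14, 7.11 and 5.76 with NU7441 and 4.85, 4.48 and 4.65 with vehicle (2.01 ± 0.28, adjusted p = 0.000224). The order of the treated arrays was the same again, with replicate 3 lowest.

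SCARNA11 was detected on no vehicle array of either line. It read 6.58, 6.74 and 4.86 in TC32 NU7441 and 4.18, 4.31 and 4.19 in TC32 vehicle, at least 3.03-fold higher (adjusted p = 0.00492). SCARNA20 read 5.70, 6.03 and 4.85 with NU7441 and 4.18, 4.29 and 4.21 with vehicle, also undetected there, at least 2.09-fold higher (adjusted p = 0.0016). SCARNA22, known as ACA11 and encoded in NSD2, read 5.94, 5.88 and 5.53 in TC32 NU7441 and 4.59, 4.24 and 4.19 in TC32 vehicle (1.45 ± 0.16, adjusted p = 3.59e-05), with treated arrays closer together. SCARNA3 read 6.18, 5.81 and 6.12 with NU7441 and 5.16, 5.36 and 5.10 with vehicle (0.83 ± 0.15, adjusted p = 0.00179). SCARNA4 read 5.74, 5.65 and 5.53 with NU7441 and 5.26, 4.84 and 4.47 with vehicle (0.78 ± 0.21, adjusted p = 0.0164). Neither of the last pair reached the fold minimum.

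Of box C/D type, SCARNA9 read 6.50, 6.44 and 6.95 in TC32 NU7441 and 4.88, 4.64 and 4.45 in TC32 vehicle (1.98 ± 0.18, adjusted p = 7.34e-06), with replicate 3 highest. SCARNA7 read 4.99, 4.69 and 4.70 with NU7441 and 4.46, 4.25 and 4.34 with vehicle, at least 1.26-fold higher (adjusted p = 0.0273). SCARNA2, which is transcribed from a promoter of its own, read 4.53, 4.37 and 4.52 with NU7441 and 4.30, 4.25 and 4.29 with vehicle, at least 1.01-fold higher (adjusted p = 0.452). SCARNA7 and SCARNA2 were not called and were undetected on vehicle arrays. SCARNA21 read 6.17, 5.97 and 4.77 in TC32 NU7441 and 4.15, 4.25 and 4.21 in TC32 vehicle, undetected there, at least 2.26-fold higher (adjusted p = 0.00193). Of those with both kinds of box, SCARNA12 read 4.94, 5.16 and 4.87 with NU7441 and 4.21, 4.28 and 5.08 with vehicle (0.47 ± 0.20, adjusted p = 0.124). SCARNA5 read 4.51, 4.60 and 5.21 with NU7441 and 4.38, 4.52 and 4.35 with vehicle (0.36 ± 0.17, adjusted p = 0.169). The last pair of members had overlapping groups.

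In SKNMC the 4 SCARNAs called higher were SCARNA8, SCARNA11, SCARNA13 and SCARNA9. SCARNA8 read 5.91, 6.54 and 6.95 in SKNMC NU7441 and 4.55, 4.48 and 4.66 in SKNMC vehicle (1.90 ± 0.35, adjusted p = 0.00151), and was called without the 3 arrays too (1.38). SCARNA13 read 6.79, 7.80 and 7.62 with NU7441 and 6.11, 6.19 and 6.17 with vehicle (1.25 ± 0.27, adjusted p = 0.0038), but stood at 0.65 and was not called without them. SCARNA11 read 4.82, 6.14 and 5.72 in SKNMC NU7441 and 4.24, 4.22 and 4.33 in SKNMC vehicle, at least 2.19-fold higher (adjusted p = 0.0262). Its call was lost on leaving out any SKNMC vehicle array (fitted log2 changes of 1.27 to 1.32), NU7441 replicate 2 (1.01) or NU7441 replicate 3 (1.22), and without the 3 arrays (0.58, against 1.29 with them). These are fitted against undetected vehicle signals and are no bounds. SCARNA9 read 6.13, 5.76 and 6.06 in SKNMC NU7441 and 5.13, 5.09 and 4.68 in SKNMC vehicle (1.02 ± 0.18, adjusted p = 0.0012), even over the treated arrays. It lies at the fold minimum and fell short of it without SKNMC vehicle replicate 3 (0.87), NU7441 replicate 1 (0.94) or NU7441 replicate 3 (0.98), and without between-array normalization (0.91).

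The other SCARNAs were not called in SKNMC. SCARNA18 read 5.58, 5.66 and 5.63 in SKNMC NU7441 and 4.56, 4.78 and 4.80 in SKNMC vehicle (0.91 ± 0.35, adjusted p = 0.0687). Its SE comes from a spread shared by the 4 groups, with an SD of 1.03 in TC32 NU7441 and 0.04 in SKNMC NU7441. SCARNA16 read 5.87, 5.97 and 5.83 with NU7441 and 5.23, 4.85 and 5.04 with vehicle (0.85 ± 0.25, adjusted p = 0.0217). The groups of each were apart on all arrays. SCARNA14 read 4.62, 5.46 and 5.77 in SKNMC NU7441 and 4.49, 4.29 and 4.51 in SKNMC vehicle (0.85 ± 0.29, adjusted p = 0.0409). SCARNA20 read 4.65, 5.20 and 5.09 with NU7441 and 4.23, 4.24 and 4.19 with vehicle (adjusted p = 0.0281), undetected in vehicle and at least 1.46-fold higher. SCARNA23 read 5.33, 5.76 and 5.46 with NU7441 and 4.81, 4.88 and 4.70 with vehicle (0.72 ± 0.28, adjusted p = 0.0707). Replicate 1 was the lowest treated array in these members. SCARNA7 read 4.83, 5.04 and 4.86 in SKNMC NU7441 and 4.23, 4.22 and 4.25 in SKNMC vehicle, undetected there and at least 1.39-fold higher (adjusted p = 0.00199). SCARNA22 read 5.19, 4.91 and 4.82 with NU7441 and 4.38, 4.62 and 4.53 with vehicle (0.46 ± 0.16, adjusted p = 0.047). SCARNA3 read 5.46, 5.31 and 5.22 with NU7441 and 4.71, 5.16 and 4.93 with vehicle (0.40 ± 0.15, adjusted p = 0.0711). These stood above vehicle on each treated array. SCARNA4 read 5.12, 4.45 and 4.59 in SKNMC NU7441 and 4.70, 4.26 and 4.47 in SKNMC vehicle, and SCARNA2 4.24, 4.88 and 4.72 with NU7441 and 4.30, 4.14 and 4.21 with vehicle. SCARNA5 read 4.32, 4.61 and 4.56 with NU7441 and 4.33, 4.19 and 4.16 with vehicle. SCARNA12 read 4.77, 4.53 and 4.44 with NU7441 and 4.78, 4.89 and 4.57 with vehicle, and SCARNA21 4.41, 4.70 and 4.88 with NU7441 and 4.42, 4.38 and 4.53 with vehicle. The groups of these 5 overlapped.

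The treated arrays were also compared with each other. Of the 45 members called in TC32, 26 were lowest on NU7441 replicate 3, the array highest in 28S signal, and 17 were highest there, against 14 highest on each of the others. Of all 473 probes called higher in TC32, 141 were lowest and 286 highest on that array. The widest gap was in SNORA79, which stood 2.37 lower in log2 intensity on replicate 3 than the mean of the other treated arrays, followed by SCARNA11 (1.80 lower) and SCARNA18 (1.78 lower). In SKNMC, 13 of the 15 called members were lowest on NU7441 replicate 1, the array with a 28S reading as in vehicle, and 9 were highest on replicate 3. Of all 669 probes called higher in SKNMC, 522 were lowest on replicate 1 and 322 highest on replicate 3, so the members went with the whole array there. On every treated array of its line each called member was above the vehicle mean, which a call for a mean rise over the same arrays largely sets in advance.

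**Figure D3:**
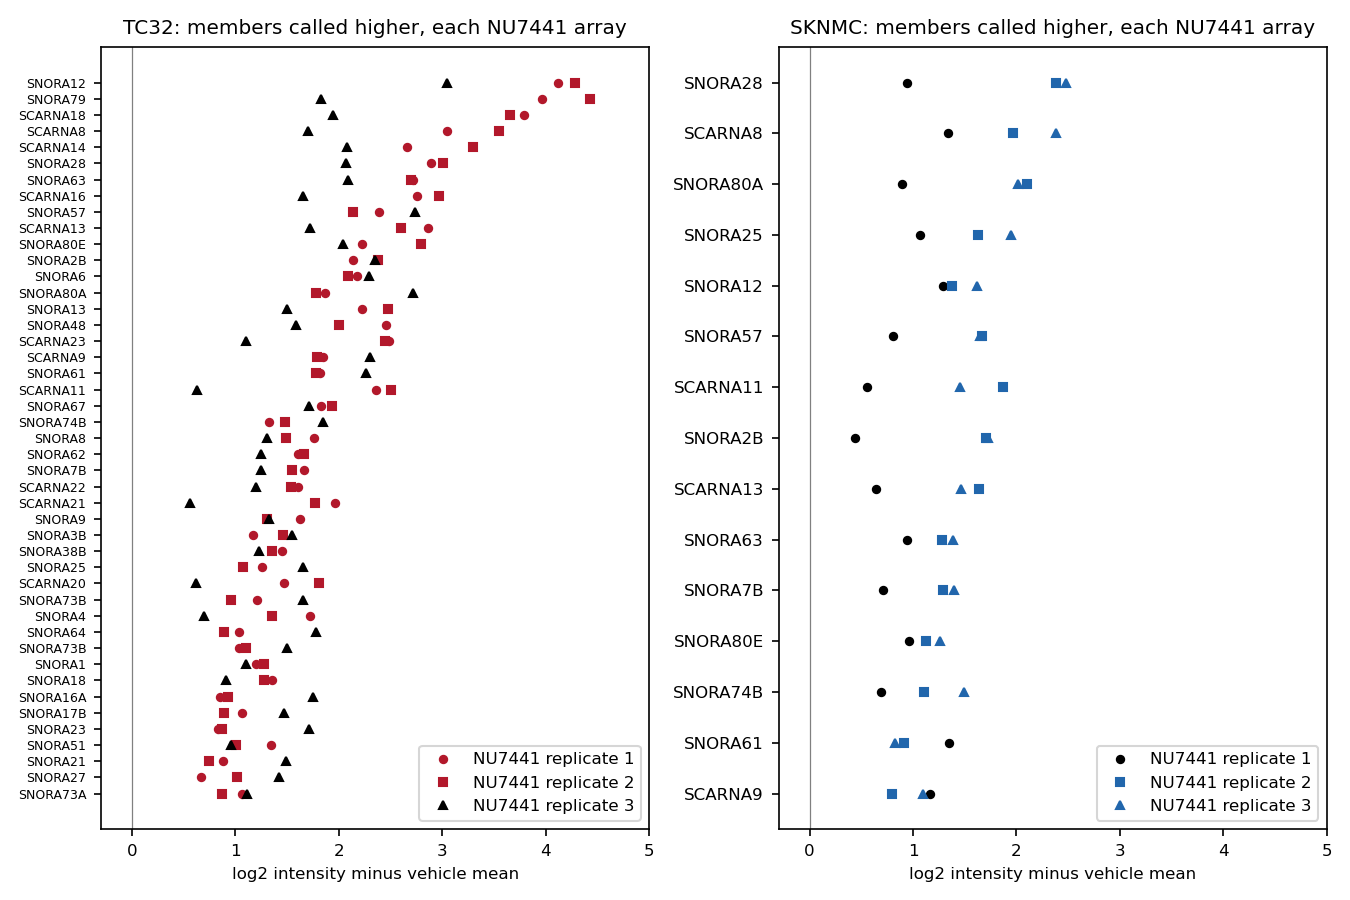
For each member called higher in TC32 (left) and SKNMC (right), the x axis gives the log2 intensity of each NU7441 array minus the vehicle mean, with 1 symbol per replicate and TC32 replicate 3 and SKNMC replicate 1 in black. In TC32 the black symbols lie lowest for 26 of 45 members and highest for 17, and in SKNMC they lie lowest for 13 of 15, as for 522 of all 669 probes called higher there.

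The responses of the lines were then compared directly. The response was called larger in TC32 for 12 members and larger in SKNMC for 0, against 0.837% and 0.363% of all probes. At adjusted p alone it was larger in TC32 for 13 (background 1.03%), and the difference was above 0 for 80 of 95. SNORA59A, 1 of the 12, was called in neither line, at 0.42 in TC32 and -0.59 in SKNMC. SNORA12 differed most, at 2.39 ± 0.35 (adjusted p = 0.00296), followed by SCARNA18 at 2.22 ± 0.49 (adjusted p = 0.0391), SCARNA14 at 1.82 ± 0.41 (adjusted p = 0.0406; a fitted value against TC32 vehicle signals below detection), SCARNA16 at 1.60 ± 0.35 (adjusted p = 0.0393) and SNORA48 at 1.33 ± 0.31 (adjusted p = 0.0479). The count rested on single arrays. It was 22 without TC32 NU7441 replicate 3 (background 1.87%) and 17 without SKNMC NU7441 replicate 1 (background 3.41%). Without any other single array it was 3 to 8 (background 0.4% to 0.814%), and without between-array normalization 1 (background 0.483%). The share over all probes thus also rose without either of the first 2 arrays, so the rise in count is not particular to the members. SNORA12 kept its call in every alternative run. Without the 3 arrays high in 28S signal the median difference over members was 0.54, against 0.53 with them. The TC32 NU7441 arrays kept there read 8.26 and 9.33 in the brighter 28S probe, above vehicle. The 1 SKNMC NU7441 array kept read 4.33, as in vehicle, so line and 28S level cannot be told apart in that fit. Of the 45 members called in TC32, only SNORA25 had a response that was not larger there, at 1.33 and 1.55 (difference -0.22 ± 0.31, adjusted p = 0.795). Those 45 were picked by their TC32 rise, so this count is no measure of a difference between the lines.

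**Figure D4:**
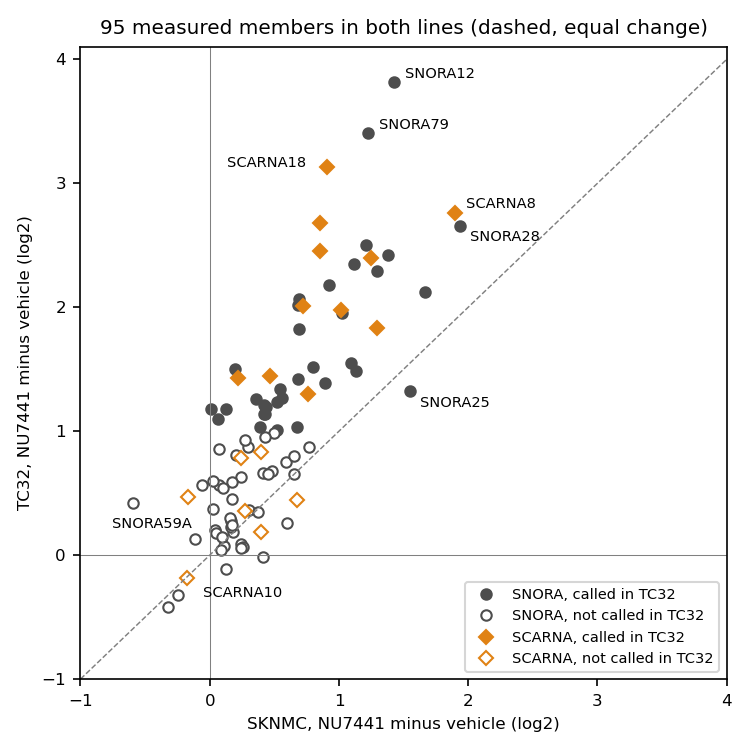
Each point is 1 of the 95 testable member probes, with its log2 fold change (NU7441 minus vehicle) in SKNMC on the x axis and in TC32 on the y axis; filled symbols were called in TC32, diamonds are SCARNA and circles SNORA. Most points lie above the dashed line of equal change, with SNORA12 at 3.82 and 1.43 the farthest, while SNORA25 lies below it.

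The lines were also set against each other under vehicle. Of the 95 members 0 were called higher in TC32 than in SKNMC and 1 lower, against 1.08% and 2.09% of all probes, with a median difference of 0.11. At adjusted p alone 4 were higher (background 4.4%). The exception was SNORA12, with 5.16, 4.995 and 5.19 in TC32 vehicle and 6.62, 6.39 and 6.28 in SKNMC vehicle (-1.32 ± 0.25, adjusted p = 0.00276). With NU7441 the order was the other way, with 9.24, 9.40 and 8.16 in TC32 and 7.72, 7.81 and 8.05 in SKNMC.

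The smallest changes are given next. The 3 nearest to 0 in both lines among those detected on all 12 arrays were SNORA56, SCARNA10 and SNORA66. SNORA56, encoded in the dyskerin gene DKC1, read 5.25, 5.55 and 5.54 in TC32 NU7441 and 5.45, 5.76 and 4.99 in TC32 vehicle (0.05 ± 0.18, adjusted p = 0.91), and 4.76, 4.9995 and 5.15 in SKNMC NU7441 and 4.83, 4.79 and 5.02 in SKNMC vehicle (0.09 ± 0.18, adjusted p = 0.77). SCARNA10, a guide for the U5 small nuclear RNA with both kinds of box, read 6.29, 6.36 and 6.29 in TC32 NU7441 and 6.49, 6.52 and 6.50 in TC32 vehicle (-0.19 ± 0.12, adjusted p = 0.301), and 6.37, 6.58 and 6.49 in SKNMC NU7441 and 6.63, 6.63 and 6.71 in SKNMC vehicle (-0.18 ± 0.12, adjusted p = 0.298). SCARNA10 was therefore below vehicle on each treated array of both lines without being called. SNORA66 read 4.89, 5.01 and 5.37 in TC32 NU7441 and 4.62, 4.70 and 4.91 in TC32 vehicle (0.35 ± 0.16, adjusted p = 0.155), and 4.95, 5.06 and 5.31 in SKNMC NU7441 and 4.60, 4.94 and 4.65 in SKNMC vehicle (0.38 ± 0.16, adjusted p = 0.106). Its groups touched in TC32 and were apart in SKNMC, and a missed threshold does not show that these members kept their level.

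Host genes were then set beside the members. Of the 95 members 92 lie within the span of another named gene, and 84 had a host that was measured, 67 hosts in all. The hosts had a median log2 fold change of -0.01 in TC32, with 1 called higher (EIF5, a translation initiation factor, 1.26 ± 0.17, adjusted p = 0.000194) and 1 lower (IARS1, an aminoacyl-tRNA synthetase, -1.52 ± 0.16, adjusted p = 2.37e-05), near the background of 2.17% higher and 3.08% lower. Of the 39 called members with a measured host, 38 had a host that was not called, the exception being SNORA28 in EIF5. SNORA84, inside IARS1, stood at -0.42 ± 0.19 and was not called. In SKNMC 0 hosts were called higher and 1 lower (DANCR at -1.004), and the hosts of all 12 called members with a measured host were not called.

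For the largest rises the host values were as follows. CWF19L1, host of SNORA12, stood at -0.28 ± 0.16 in TC32 and -0.53 ± 0.16 in SKNMC, and GTF2A1, a general transcription factor subunit that holds SNORA79, at 0.05 ± 0.23 and -0.21 ± 0.23. TMEM167A, host of SCARNA18, was at -0.96 ± 0.15 (adjusted p = 0.000409) and -0.68 ± 0.15, under the fold minimum and opposite in sign to its RNA. TIPIN, a replication fork protein that holds SCARNA14, was at -0.36 ± 0.14 and -0.59 ± 0.14. SEC14L1, which with SNHG20 spans SCARNA16, was at -0.44 ± 0.19 and -0.33 ± 0.19. EIF4A2, a helicase of translation that holds SNORA63, was at 0.37 ± 0.14 and 0.19 ± 0.14, and its relative EIF4A1, around SNORA48, at -0.13 ± 0.13 and -0.25 ± 0.13. None of these was called. CSKMT, one of the genes that span SNORA57, stood at 1.16 ± 0.40 (adjusted p = 0.053) and 1.10 ± 0.40 (adjusted p = 0.054), URB1 around SNORA80A at -0.05 ± 0.19 and 0.31 ± 0.19, and TAF1D around SNORA25 at -0.32 ± 0.34 and 0.97 ± 0.34 (adjusted p = 0.0488). The TC32 vehicle mean of CSKMT, 4.39, was under the lowest detected signals of those arrays (4.43 to 4.48), so its TC32 value is fitted against background. GTF2A1 and URB1 were dim too, with TC32 vehicle means of 4.64 and 4.85, so a change in them could be missed. CHD4, a chromatin remodeller that holds SCARNA11, was at 0.20 ± 0.17 and 0.15 ± 0.17, KANSL2 around SNORA2B at 0.29 ± 0.17 and 0.08 ± 0.17, and EIF5 in SKNMC at 0.75 ± 0.17, also without a call. HAUS6, host of SCARNA8, did not pass the filter.

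Members of the same host could differ. KANSL2 holds SNORA2B, called and at least 4.37-fold higher in TC32, SNORA2A, at least 1.30-fold higher and undetected in vehicle, and SNORA2C at 0.19, neither of them called. KHDC4 holds SNORA80E, which rose by 2.35 ± 0.17, and SCARNA4 at 0.78. Among the 13 hosts with several measured members, TAF1D, a subunit of a factor for ribosomal RNA transcription, had the most, with 4 of 5 called in TC32 and values from 0.75 (SNORA32) to 1.52 (SNORA8). Members in ribosomal protein genes and those elsewhere, a split made after the values were seen, had medians of 0.91 and 0.93 in TC32 and 0.44 and 0.41 in SKNMC. Calls were 6 of 16 against 39 of 79 in TC32 (background 2.17%) and 0 of 16 against 15 of 79 in SKNMC (background 3.08%). The median length was 135 nt in members called in TC32 and 135 nt in those not called.

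**Figure D5:**
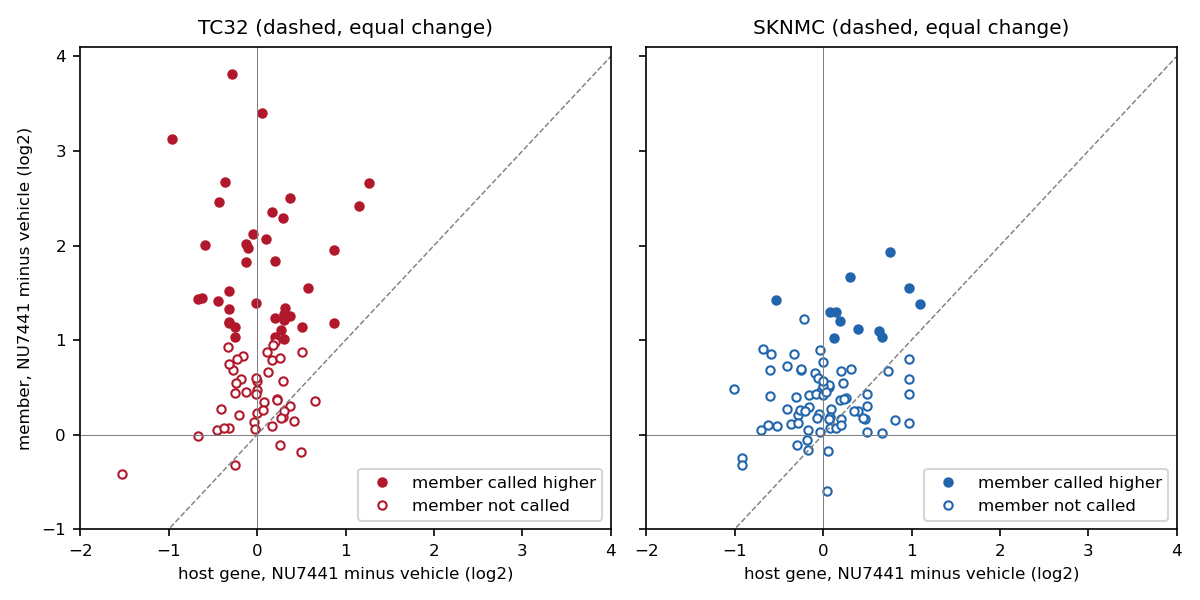
Each point is a member with a measured host; the x axis gives the log2 fold change (NU7441 minus vehicle) of the host gene and the y axis that of the member, in TC32 (left) and SKNMC (right), with members called higher filled. Hosts cluster around 0 (medians -0.01 and 0.0004) while members extend upward to 3.82 in TC32 and 1.93 in SKNMC.

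Genes for the protein partners of these RNAs were read from fixed lists. With 2.17% and 3.08% of all probes called higher in TC32 and SKNMC and 3.08% and 4.31% lower, lists of this size would hold few calls in any case. Among 8 genes of the H/ACA core and its assembly, 0 were called in TC32 and 0 in SKNMC, with medians of -0.12 and -0.21. DKC1 stood at -0.45 ± 0.17 (adjusted p = 0.0729) and -0.52 ± 0.17 (adjusted p = 0.0347), RUVBL1, an ATPase of snoRNP assembly, at -0.60 ± 0.16 and -0.66 ± 0.16, and SHQ1, a chaperone of dyskerin, at 0.56 ± 0.14 and 0.60 ± 0.14. Of 15 genes of Cajal bodies and their RNPs 14 were measured and 0 were called in either line (medians -0.09 and -0.06); COIL, the coilin scaffold, stood at -0.19 and -0.11 and WRAP53, which carries SCARNAs to Cajal bodies, at 0.15 and -0.24. Of 18 genes for trimming and surveillance of small RNA ends, 0 were called in either line (medians 0.08 and -0.03). There PARN, a deadenylase that trims H/ACA tails, stood at -0.34 and -0.73, EXOSC10, a nuclear exosome nuclease, at 0.10 and -0.39, and MTREX, its helicase, at -0.71 and -0.04. At adjusted p alone some of these genes pass; the fold minimum was not reached by any of them.

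Related groups of RNAs outside the class give context. TERC, the telomerase RNA, which ends in an H/ACA domain bound by dyskerin, read 5.59, 5.56 and 4.79 in TC32 NU7441 and 4.21, 4.24 and 4.32 in TC32 vehicle, undetected there, and was at least 1.80-fold higher (adjusted p = 0.00126). In SKNMC it was detected on 1 of 3 NU7441 and 0 of 3 vehicle arrays, so no change is given and the lines cannot be compared in it; TERT did not pass the filter. Of 178 box C/D probes (SNORD) 94 passed, of which 26 were called higher in TC32 and 20 in SKNMC, and 0 lower in either, with medians of 0.69 and 0.64. Of all probes 2.17% and 3.08% were called higher and 3.08% and 4.31% lower. The H/ACA and Cajal body members stood at 45 and 15 of 95, and the difference between the classes was not tested.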

How the data were processed

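Total RNA of 12 samples was measured on Illumina BeadChips after biotin cRNA labelling. For every probe and array the authors deposited a bead intensity, unnormalized per the file headers, with its detection p-value. A second table deposited by them gives log2 values. GenomeStudio, lumi and R 3.0.2 appear in the submitters' processing notes with no role stated. Intensities were normalized here with neqc of limma 3.58.1 in R 4.3.3, which takes the background from the detection p-values, adds an offset of 16, quantile-normalizes and takes log2. Offset and background shrink folds of dim probes, as most members are. Probes detected (p under 0.05) on at least 3 of 12 arrays were fitted together, each of the 4 groups with its own mean and all with 1 spread per probe. An SE or p-value beside 1 line's readings therefore also holds the spread of the other line, which was unequal for some members. The contrasts were NU7441 minus vehicle in each line, TC32 response minus SKNMC response, and TC32 vehicle minus SKNMC vehicle. Tests were two-sided and moderated, with Benjamini-Hochberg adjustment over all 21753 probes, and a call needed an adjusted p under 0.05 and a log2 change of at least 1 in size. Where a group had no detected array, the fold is a lower bound against the lowest detected signal. The number of arrays limits the precision, and an exact permutation test of 3 against 3 could not go below p = 0.1.

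Symbols came from the platform annotation, and all 126 member probes were found in the RefSeq table. A host is a gene of another name whose span there contains the member. Each host was read by its brightest probe that passed the filter, and its other probes were not used. The table gives no strand for members, so the planned condition of a shared strand was not applied; protein-coding genes and then the shortest span were preferred. Named members were, per line, the 8 largest called changes, the 5 largest called response differences, every SCARNA that passed, the 3 nearest to 0, the 3 largest called differences under vehicle (there was 1), members with several probes, and the hosts of members under the first and second of these rules. Members, lists and alternatives were chosen with earlier results of these data known. A planned correlation among members is not given, since arrays fall into treated and vehicle clusters. The model was tested on simulated data. Alternatives changed the background, normalization, filter, model and arrays used. No column of sample values was left unused.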

Additional observations from a re-analysis of the deposited data

Results flagged for a closer look

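The response to NU7441 differed between the lines for 12 members by the test of the difference itself (limma, TC32 response minus SKNMC response, adjusted p under 0.05 and a difference of 1 or more on the log2 scale). They were SNORA12 (2.39), SCARNA18 (2.22), SCARNA14 (1.82), SCARNA16 (1.60), SNORA48 (1.33), SNORA62 (1.30), SNORA63 (1.29), SNORA6 (1.26), SNORA80E (1.24), SNORA67 (1.13), SNORA51 (1.04) and SNORA59A (1.02). SCARNA14 and SNORA51 were detected on 0 of 3 TC32 vehicle arrays, and SNORA51 on 1 of 3 arrays of each SKNMC group, so that their values are fitted against background. In each, all 3 TC32 NU7441 arrays lay above the TC32 vehicle arrays. In SKNMC all 3 NU7441 arrays lay above vehicle for 9 of them, 2 arrays for SNORA62, 1 for SNORA51 and 0 for SNORA59A. Only SNORA12, SNORA63 and SNORA80E were called higher in SKNMC. SNORA59A was called in neither line. It stood at 0.42 ± 0.15 in TC32 (limma adjusted p = 0.061) and -0.59 ± 0.15 in SKNMC (adjusted p = 0.00978). In SKNMC all 3 of its NU7441 arrays lay below vehicle. Without TC32 NU7441 replicate 3 and SKNMC NU7441 replicates 2 and 3 the differences were larger for SNORA12 (2.95), SCARNA18 (2.89), SCARNA14 (2.85), SCARNA16 (2.06) and SNORA48 (1.92). The TC32 NU7441 arrays kept in that fit were still above vehicle in the brighter 28S probe, and the 1 SKNMC NU7441 array kept was at vehicle level. In that fit SNORA6 stood at 0.87 (adjusted p = 0.0994) and lost its call, and SNORA59A stood at 1.01 (adjusted p = 0.0486).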

How the results depend on the processing

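In all, 28 alternatives were run, of which the filter on vehicle arrays was chosen after seeing the data. Main counts were 45 members higher in TC32, 15 in SKNMC, 12 with a larger TC32 response and 1 lower in TC32 vehicle than in SKNMC vehicle. Of 1870 single values of named members under the alternatives 0 called ones changed sign, 147 lost a call, 17 gained one and 69 that were called on neither side moved by more than their spread, 19 of them without background correction and 19 in the submitters' table. Without background correction the main counts were 17, 1, 2 and 0, and in the submitters' log2 table also 17, 1, 2 and 0. With an offset of 50 they were 25, 5, 5 and 0. A smaller fold at low signal follows from these settings. Without background correction 0.63%, 0.965% and 0.29% of all probes were higher in TC32, in SKNMC and for the response difference. These shares were 0.667%, 0.896% and 0.29% in the submitters' table, and 0.896%, 1.3% and 0.382% with the offset of 50. The SKNMC count of 1, 1.05% of members, was therefore near the background. The count of response differences was 1 with median scaling (background 0.51%) and 1 where arrays were not normalized to each other (background 0.483%). It was 7 without a detection filter (background 0.258%) and 20 with array weights (background 3.85%). The cause was not tested. Without the fold minimum 37 members were higher (background 13.2%) and 1 lower in SKNMC, where 2805 of all 21753 probes were lower. Under vehicle 4 were higher in TC32 than in SKNMC (background 4.4%). With the filter on vehicle arrays alone 63 members remained, of which 32 were called in TC32 and 12 in SKNMC, all among the calls above. Leaving out single arrays gave 39 to 47 calls in TC32 (background 1.6% to 2.77%) and 12 to 16 in SKNMC (background 2.42% to 4.98%). For the response difference it gave 3 to 22 (background 0.4% to 3.41%), and under vehicle 1 throughout. Without SKNMC NU7441 replicates 2 and 3 and TC32 NU7441 replicate 3 the counts were 40, 6, 25 and 1. Same-numbered samples correlated between -0.07 and 0.06, which cannot settle whether the numbers pair them, and they were not treated as pairs. With replicate number as a block the counts were 45, 15, 9 and 1.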
